A study of Homo sapiens and Mus musculus with 12 samples.

Results

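The interferon regulatory factor loci are the genes IRF1, IRF2, IRF3, IRF4, IRF5, IRF7, IRF8 and IRF9 of the IRF family and IRF2BP2, which encodes a corepressor that binds IRF2. They are 9 of the 20046 protein-coding genes of GENCODE release 44. For each, the peaks were taken whose summit lay in the annotated gene body or up to 70 kb on either side of it on GRCh38, here called its window. These windows held 25 of the 12513 peaks of 5 ChIP-seq peak lists. The genes were listed by name and not by any value of the lists, though earlier results of these data were known.

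The study dealt with what the histone demethylase LSD1 does in myeloid differentiation, with and without its enzyme activity, and its ChIP-seq of human leukemia lines addressed, among other points, whether the repressor GFI1 needs LSD1 to bind chromatin. Of its 12 samples, 5 gave the peak lists used here. Chromatin of THP1 cells, an acute monocytic leukemia line for which the labels name no guide or treatment, was precipitated with an antibody against the ETS factor SPI1 and, in another ChIP, against GFI1. Chromatin of K562 cells, an erythroleukemia line, was precipitated with antibodies against LSD1 and GFI1 after a non-targeting sgRNA (sg-NT), and against GFI1 after an sgRNA against LSD1 (sg-LSD1). Both K562 groups stably expressed Cas9 from a lentivirus selected with puromycin. The 3 input libraries and 4 H3K4me1 libraries of murine marrow were not analysed here. Only GFI1 was measured in both lines. For SPI1, read in THP1 cells, and LSD1, read in K562 cells, the factor and the cell line cannot be told apart. Each condition had 1 library, so the values below carry no replicate error and libraries were not tested against each other.

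IRF proteins share a DNA-binding domain that reads repeated GAAA letters, as in interferon-stimulated response elements. IRF3, IRF5 and IRF7 are switched on by sensors of foreign nucleic acid and drive interferon genes, IRF9 acts downstream of the interferon receptor, and IRF1 and IRF2 act as an opposing pair on interferon-responsive promoters. IRF8 and IRF4 are mostly limited to blood cells, bind composite ETS-IRF sites together with SPI1, and IRF8 is needed for monocyte and dendritic cell development, while GFI1 recruits LSD1 to repress monocytic genes in granulocyte precursors.

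The sequences at the summits on which the results turn are shown first, because they give the letters under the strongest peaks of IRF1, IRF8 and IRF9 and under the only site shared by antibodies. They are the GRCh38 plus strand, 50 bases to each side of the summit, without bases of annotated UTRs. Capitals mark, on either strand, GAGGAAGT (an SPI1 core), AATCAC (a GFI1 core), AGATAA and TGATAA (both of GATA factors), TGTGGT (RUNX), TGAGTCA with its reverse complement TGACTCA (AP-1), GAAANNGAAA (an IRF element) and GGAANNGAAA (an ETS-IRF composite, which can share letters with the IRF element). At summits of GFI1 lists the shorter AATC is marked too, which lies within AATCAC, and at the shared site also GGAA, which lies within the SPI1 core and the composite. The last 5 were added after their letters had been seen, because a core lies near the summit or the peak lies at a transcript start. The IRF2 promoter window there runs 100 bases past the summit. At the strongest summits of IRF3 and IRF5 every base of the window was annotated as UTR, so they are not printed.
IRF8, SPI1 and GFI1 of THP1 cells, chr16:85829768-85829884: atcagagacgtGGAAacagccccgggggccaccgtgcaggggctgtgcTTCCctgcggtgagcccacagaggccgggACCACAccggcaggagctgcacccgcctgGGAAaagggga
IRF1 window, GFI1 of THP1 cells, chr5:132556862-132556929: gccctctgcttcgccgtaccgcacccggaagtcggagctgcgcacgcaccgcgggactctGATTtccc
IRF9 window, LSD1 of K562 cells, chr14:24144700-24144800: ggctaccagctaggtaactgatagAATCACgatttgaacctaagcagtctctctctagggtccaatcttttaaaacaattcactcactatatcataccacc
IRF2 promoter, LSD1 of K562 cells, chr4:184474676-184474826: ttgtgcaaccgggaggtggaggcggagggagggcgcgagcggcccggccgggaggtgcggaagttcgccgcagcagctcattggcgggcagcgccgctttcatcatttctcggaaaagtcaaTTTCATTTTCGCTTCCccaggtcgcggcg
IRF5, SPI1 of THP1 cells, chr7:128940610-128940671: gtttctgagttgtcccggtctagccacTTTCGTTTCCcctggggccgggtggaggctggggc
IRF5 window, GFI1 of K562 sg-LSD1 cells, chr7:128988536-128988636: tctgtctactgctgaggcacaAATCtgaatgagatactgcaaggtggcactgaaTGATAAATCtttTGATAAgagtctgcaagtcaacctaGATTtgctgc
IRF8, upstream, GFI1 of THP1 cells, chr16:85838702-85838802: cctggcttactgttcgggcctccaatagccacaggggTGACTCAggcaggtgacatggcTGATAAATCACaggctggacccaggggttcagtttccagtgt
IRF8, downstream, GFI1 of THP1 cells, chr16:85978554-85978654: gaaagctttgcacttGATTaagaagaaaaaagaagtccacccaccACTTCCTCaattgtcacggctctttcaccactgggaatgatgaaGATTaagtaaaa

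For each peak the deposited lists give the fold (fragments over the summit against the local background, each plus 1) and a Poisson −log10 p at the summit. Both were solved together for a whole number of fragments, which succeeded for 100% of the peaks of every list. The lists held 1846 peaks for SPI1 and 3461 for GFI1 in THP1 cells, and in K562 cells 6548 for LSD1, 498 for GFI1 in sg-NT and 160 for GFI1 in sg-LSD1 cells. The libraries were shallow: the median summit of a list had 11 to 13 fragments. Even at the lowest background of a list, 5 fragments were needed for a call in the SPI1 and sg-NT GFI1 lists and 6 in the others, so weaker sites were not detectable at this depth. The 95% intervals given for fragments are exact Poisson intervals and cover counting error only.

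GFI1 in THP1 cells and LSD1 in K562 cells accounted for most of the 25 peaks, with 10 and 12. SPI1 had 2 peaks, GFI1 in K562 sg-LSD1 cells had 1 and GFI1 in K562 sg-NT cells had 0. By locus, SPI1 lay at IRF5 and IRF8, GFI1 of THP1 cells at IRF1, IRF5, IRF8 and IRF2BP2, and LSD1 at IRF1, IRF2, IRF3, IRF5, IRF9 and IRF2BP2. IRF5 was the 1 locus with peaks of 4 lists. IRF4 and IRF7 had none.

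**Figure D1:**
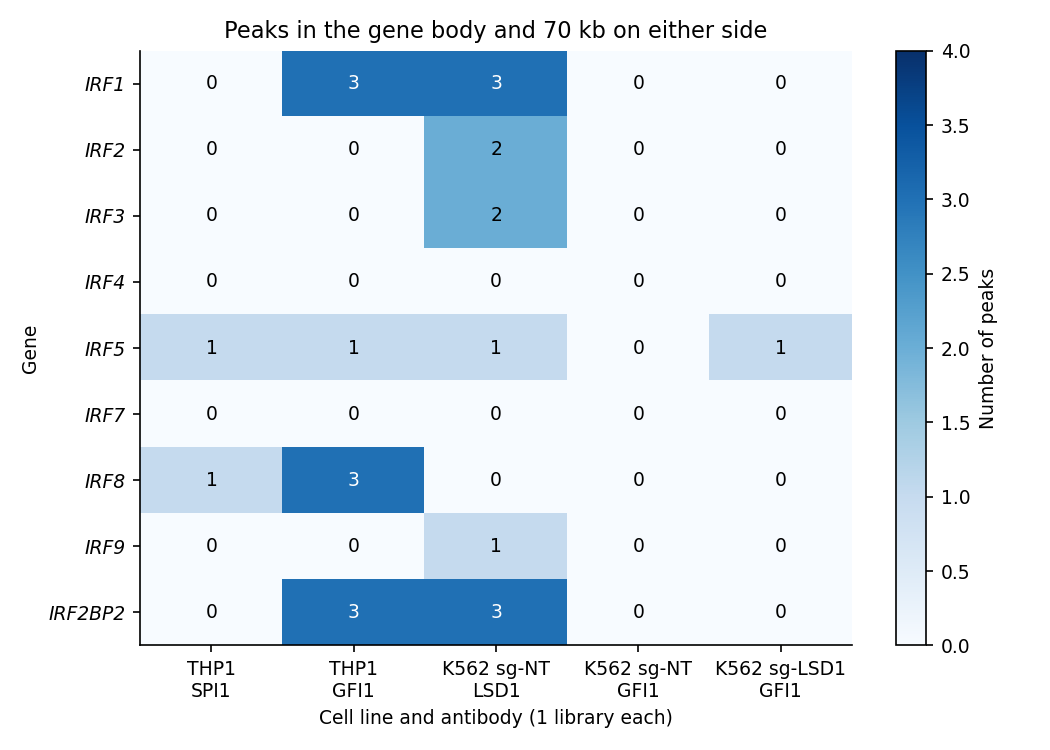
Number of peaks with the summit in the gene body or 70 kb on either side, for each gene (rows) and each peak list (columns, 1 library each). IRF1, IRF8 and IRF2BP2 had 3 GFI1 peaks each in THP1 cells, and the column of GFI1 in K562 sg-NT cells is 0 throughout.

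Windows of this size catch peaks at many genes. Of all protein-coding genes, 18.6% had a peak of the SPI1 list in their window, against 2 of the 9 loci. For GFI1 in THP1 cells the share of all genes was 31.2%, against 4 of 9. For LSD1 it was 46.3%, against 6 of 9. It was 6.06% for GFI1 in sg-NT cells, against 0 of 9, and 1.86% for GFI1 in sg-LSD1 cells, against 1 of 9. Read against these shares, the counts of loci are not taken as particular to the IRF genes. The windows of the loci, with a median length of 152.6 kb, were shorter than those of all genes, with 167.4 kb.

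Some windows held several peaks. At least 3 GFI1 peaks in THP1 cells were found in the windows of IRF1, IRF8 and IRF2BP2, against 2.52% of all genes. At least 3 LSD1 peaks were found at IRF1 and IRF2BP2, against 13.9% of all genes. Per megabase of window, the loci held 6.69 GFI1 peaks in THP1 cells (exact 95% Poisson interval 3.21 to 12.3, counting error only) and the windows of all genes 1.56. For LSD1 the density was 8.02 (4.15 to 14) against 3.05, and for SPI1 1.34 (0.162 to 4.83) against 0.803. Peaks in the same window are neighbours and not independent, so these densities are a description and were not tested.

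Most of the peaks were far from the genes they were listed with. Of the 25 summits, 14 lay more than 50 kb from the canonical transcript start and 12 had a member as the nearest protein-coding start. In the gene body itself lay 4. Only 2 loci had a peak within 1000 bp of one of their own protein-coding starts, SPI1 at IRF5 and LSD1 at IRF2. Of all genes, 1.30% had such a promoter peak of SPI1, 4.67% of GFI1 in THP1 cells, 8.47% of LSD1, 0.304% of GFI1 in sg-NT cells and 0.0998% of GFI1 in sg-LSD1 cells.

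**Figure D2:**
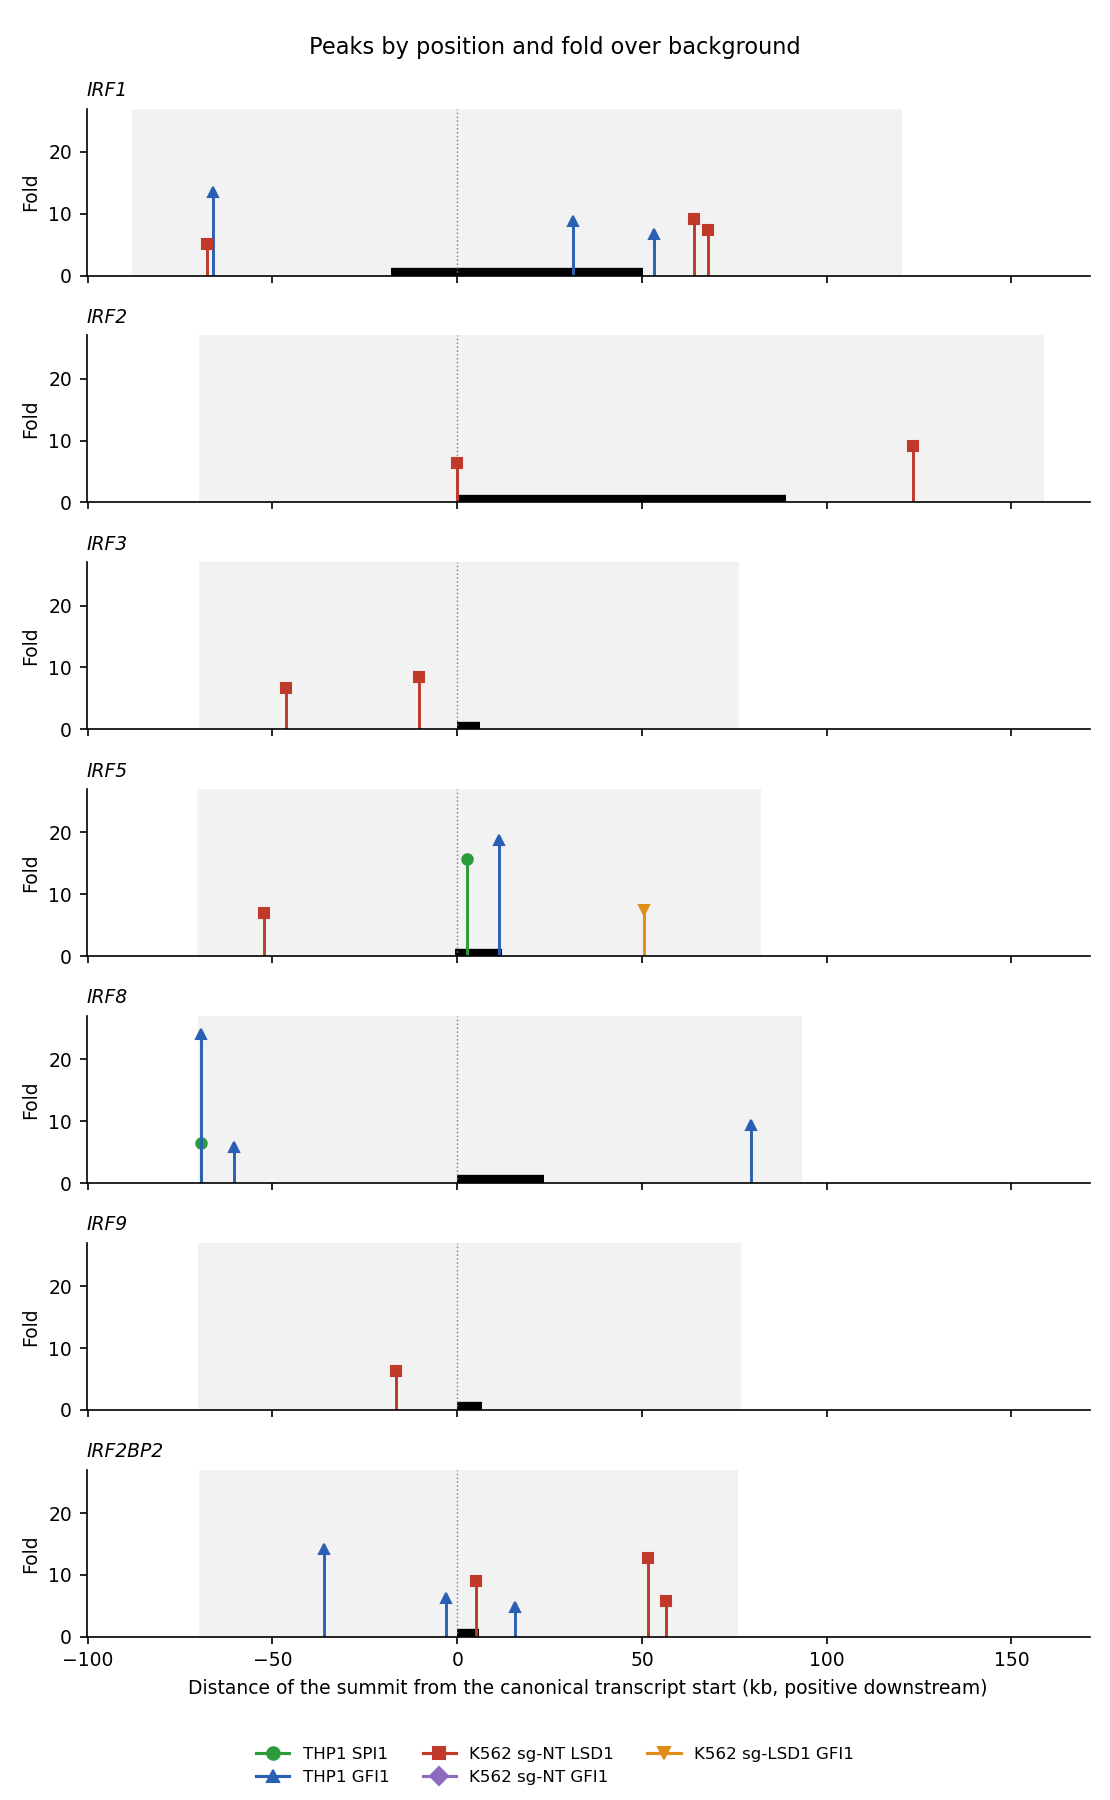
Position and fold of every peak at the 7 loci with a peak. The x axis is the distance of the summit from the canonical transcript start in kb, positive downstream, and the y axis the fold over background; black bars are gene bodies and grey areas the windows. SPI1 and GFI1 coincide at IRF8, near the left edge of its window, and SPI1 and GFI1 lie apart within the IRF5 gene.

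IRF8 (chr16:85899116-85922606, plus strand), the monocyte and dendritic cell factor, held the only site in any window that peaks of different lists shared. In THP1 cells a GFI1 peak at chr16:85829516-85830253 had a 24.1-fold enrichment with a −log10 p of 65.9, from 52 fragments (38.8 to 68.2) over a background of 1.2. It ranked 26 of the 3461 peaks of its list. The SPI1 peak at chr16:85829653-85829976 had a 6.54-fold enrichment with a −log10 p of 9.53, from 9 fragments (4.12 to 17.1) over 0.530, and ranked 1478 of 1846. The SPI1 peak lay wholly within the GFI1 peak, with 324 bp in common and summits 16 bp apart. So GFI1 was among the strongest of its list at a place where SPI1 was among the weaker ones. Over the whole lists, 10.5% of SPI1 peaks overlapped a GFI1 peak of THP1 cells by 1 bp or more, and 5.58% of those GFI1 peaks overlapped an SPI1 peak.

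The shared site lies 69.3 kb upstream of the IRF8 start, between coding genes, and the nearest protein-coding start is that of COX4I1, a respiratory chain subunit, at 28.6 kb. Its SPI1 summit was 702 bp inside the edge of the window. The window of letters shown above has neither the longer SPI1 core nor AATCAC nor AATC, but GGAA in either orientation 3 times and ACCACA, the RUNX letters, 14 bp from the GFI1 summit. An AATC is cut by the start of the printed stretch, 49 bp from the SPI1 and 65 bp from the GFI1 summit. The longer SPI1 core was found in 50 bp at the summit of 26.4% of SPI1 peaks and the RUNX letters at 6.36% of GFI1 peaks of THP1 cells. In windows 2000 bp away the shares were 0.19% and 3.52%.

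2 further GFI1 peaks flanked IRF8 in THP1 cells. One at chr16:85838569-85838869, 60.4 kb upstream, had a fold of 5.91 from 12 fragments (6.20 to 21.0) and a −log10 p of 9.25. There, AATCAC lay 17 bp from the summit, overlapping TGATAA, and TGACTCA lay 10 bp from it on the other side. It was the 1 of 10 GFI1 summits of the windows with AATCAC within the 50 bp, against 10.1% of the list and 2.37% of windows 2000 bp away. GATA letters stood within 50 bp at 3.81% of the summits of the list and in 5.03% of windows 2000 bp away. For AP-1 letters these shares were 1.76% and 0.679%. The other peak, at chr16:85978280-85979156 and 79.4 kb downstream of the start, had a fold of 9.43 from 13 fragments (6.92 to 22.2) and a −log10 p of 15.5. Its summit lay 1 bp from the SPI1 core, which 1.73% of GFI1 summits in THP1 cells held, but no SPI1 peak was called there. In K562 cells the nearest LSD1 peak was 211 kb and the nearest sg-NT GFI1 peak 517 kb from the IRF8 start.

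IRF5 (chr7:128937457-128950038, plus strand), which acts downstream of Toll-like receptors, was the locus with SPI1 and GFI1 peaks inside the gene. The SPI1 peak at chr7:128940407-128940816 had a 15.7-fold enrichment with a −log10 p of 29.9, from 21 fragments (13 to 32.1) over a background of 0.404, and ranked 147 of 1846. It lay in intron 1 of the canonical transcript, 12 bp upstream of another protein-coding start of IRF5. The ETS-IRF composite TTTCGTTTCC lay 18 bp from its summit. A composite stood within 50 bp at 8.88% of SPI1 summits and in 0.488% of windows 2000 bp away.

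The GFI1 peak of THP1 cells at chr7:128948665-128949568 lay in exon 9 of IRF5, in bases annotated as UTR. Its fold was 18.8 and its −log10 p 65.8, from 63 fragments (48.4 to 80.6) over a background of 2.40. It ranked 27 of 3461, next to the IRF8 site, and the 2 summits of IRF5 were 8538 bp apart. IRF5 and IRF8 were the 2 loci with both an SPI1 and a GFI1 peak of THP1 cells in the window, and at IRF5 the peaks had no base in common.

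In K562 cells the IRF5 window had 1 LSD1 and 1 GFI1 peak, both in neighbouring genes. The LSD1 peak at chr7:128885493-128885753, in intron 26 of KCP and 52.3 kb upstream of the IRF5 start, had a fold of 6.99 from 14 fragments (7.65 to 23.5) and a −log10 p of 11.7. The GFI1 peak of sg-LSD1 cells at chr7:128988402-128988782, in intron 11 of TNPO3, a nuclear import receptor gene, lay 50.7 kb downstream. It had a fold of 7.41 from 12 fragments (6.20 to 21.0) and a −log10 p of 11.7. This was the only GFI1 peak of K562 cells at the loci, and the nearest sg-NT GFI1 peak was 501 kb from the IRF5 start. TGATAA stood 7 and 19 bp from its summit, and GATA letters were found at 16.2% of summits of that list and 5.94% of windows 2000 bp away. Of the whole sg-LSD1 GFI1 list, 31.9% of peaks shared a base with an sg-NT GFI1 peak, so a peak called after the LSD1 guide alone was common in it. With an LSD1 peak of sg-NT cells, 44.4% of that list overlapped, and the site in TNPO3 did not. The difference between the guides at this site was not tested, as each had 1 library.

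IRF1 and IRF2 are the opposing pair of the family. At IRF1 (chr5:132440440-132508719, minus strand) both GFI1 of THP1 cells and LSD1 of K562 cells had 3 peaks, at different places. None of these peaks had IRF1 as its nearest protein-coding start. The annotated gene body is much longer than the canonical transcript, and windows set around the canonical transcripts held the same number of peaks in every list. The GFI1 peaks had folds of 13.6, 8.76 and 6.67. The strongest, at chr5:132556769-132557123, came from 20 fragments (12.2 to 30.9) with a −log10 p of 25.4. Its summit lay 18 bp upstream of a start of RAD50, a DNA repair gene, and 66.1 kb upstream of the IRF1 start. The second, at chr5:132459122-132459618, had 12 fragments and lay in the IRF1 gene body outside the canonical transcript, 31.4 kb downstream of the start. It also lay in intron 1 of the protein-coding gene ENSG00000283782, whose start was the nearest, at 9.69 kb. The weakest, at chr5:132437442-132437764, had 10 fragments and lay 53.2 kb downstream, with a start of ENSG00000283782 nearest, at 12.1 kb.

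The LSD1 peaks of the IRF1 window had folds of 9.09, 7.36 and 5.14. The first, at chr5:132426624-132427137 with 14 fragments (7.65 to 23.5), and the second, at chr5:132422738-132423008 with 11 fragments (5.49 to 19.7), lay 64.0 and 67.9 kb downstream in the noncoding gene IRF1-AS1. TGAGTCA lay 2 bp and the SPI1 core 42 bp from the summit of the first. AP-1 letters stood within 50 bp at 1.59% of LSD1 summits and in 0.748% of windows 2000 bp away. The SPI1 core stood in 200 bp at 1.92% of LSD1 summits and in 1.18% of such windows. The third, at chr5:132558443-132558776 with 12 fragments (6.20 to 21.0), lay in intron 1 of RAD50, 1555 bp from the summit of the GFI1 peak at the RAD50 start. The 32 bases at the summit of this RAD50 intron peak occur 35272 times in the genome, so reads there may not be placed uniquely. No GFI1 peak of THP1 cells shared a base with an LSD1 peak in this or any other window, where 8.70% of all such GFI1 peaks and 4.60% of LSD1 peaks did.

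IRF2 (chr4:184385702-184474558, minus strand) had LSD1 peaks and no other, and 1 of them lay at its promoter. That peak, at chr4:184474601-184475000, had its summit 168 bp upstream of an IRF2 start. Its fold was 6.34 and its −log10 p 9.63, from 11 fragments (5.49 to 19.7) over a background of 0.892, which put it at rank 4248 of 6548. In the letters shown above, the IRF element TTTCATTTTC and the composite TTTCGCTTCC overlap, 77 and 83 bp from the summit. An IRF element was found in 200 bp at 2.00% of LSD1 summits and in 3.08% of windows 2000 bp away, and a composite in 2.14% and 1.74%. The distal peak, at chr4:184351032-184351326 and 123.4 kb downstream, had a fold of 9.20 from 14 fragments (7.65 to 23.5) and a −log10 p of 15.4. The 32 bases at its summit occur 34 times in the genome. The nearest THP1 peaks were 485 kb (GFI1) and 792 kb (SPI1) from the IRF2 start.

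Of the factors activated by nucleic acid sensors, IRF3 had LSD1 peaks and IRF7 had no peak. At IRF3 (chr19:49659569-49665875, minus strand) an LSD1 peak at chr19:49676136-49676476 had a 8.42-fold enrichment with a −log10 p of 14.8, from 16 fragments (9.15 to 26.0). It lay 70 bp downstream of a start of PRMT1, an arginine methyltransferase gene, and 10.5 kb upstream of the IRF3 start. A second LSD1 peak at chr19:49711770-49712445, in intron 17 of CPT1C and 46.3 kb upstream, had a fold of 6.75 from 10 fragments (4.80 to 18.4) and a −log10 p of 10.1. The 32 bases at that summit occur 4 times. At IRF7 (chr11:612553-615983, minus strand), the interferon-inducible relative of IRF3, the nearest peak of any list was of LSD1, 168 kb from the start, and the nearest THP1 peaks were over 1 megabase away, 1217 kb for GFI1 and 1224 kb for SPI1.

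IRF4 (chr6:391739-411443, plus strand), the lymphoid relative of IRF8, had no peak either, and its nearest peaks were 243 kb away for LSD1, 633 kb for GFI1 of THP1 cells and 1274 kb for SPI1. A window with no peak of any list was found at 36.8% of all genes. At IRF9 (chr14:24161234-24168043, plus strand), which acts downstream of the interferon receptor, the single peak was of LSD1. It lay at chr14:24144560-24144863, in intron 6 of PSME2, a proteasome activator gene, 16.5 kb upstream of the IRF9 start. Its fold was 6.33 and its −log10 p 9.93, from 12 fragments (6.20 to 21.0). AATCAC lay 23 bp from the summit, and 9.77% of LSD1 summits held these letters within 200 bp, against 9.5% of windows 2000 bp away. The IRF9 window holds 21 other protein-coding genes, more than that of any other member, and those of IRF2, IRF8 and IRF2BP2 hold 0.

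IRF2BP2 (chr1:234604269-234610178, minus strand), the IRF2 corepressor gene, had 3 LSD1 peaks and 3 GFI1 peaks of THP1 cells with no other protein-coding gene in its window. The LSD1 peak with the largest fold, 12.7, lay at chr1:234558301-234558992, 51.6 kb downstream, with 25 fragments (16.2 to 36.9) and a −log10 p of 26.5. Another, at chr1:234604825-234605255, lay in the UTR of exon 2, with a fold of 9.02, 31 fragments (21.1 to 44) over a background of 2.55 and a −log10 p of 23.5. These were the 2 LSD1 peaks with the largest −log10 p at the loci, at ranks 574 and 752 of 6548. The third, at chr1:234553605-234553963 and 56.5 kb downstream, had a fold of 5.81 from 14 fragments (7.65 to 23.5).

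The GFI1 peaks of THP1 cells at IRF2BP2 lay elsewhere. The strongest, at chr1:234645966-234646343 and 36.0 kb upstream, had a 14.1-fold enrichment with a −log10 p of 26.5, from 20 fragments (12.2 to 30.9), at rank 337 of 3461. The peak nearest to the start, at chr1:234613154-234613758 and 3.13 kb upstream, had a fold of 6.30 from 15 fragments (8.40 to 24.7). The weakest, at chr1:234594512-234594806 and 15.6 kb downstream, had a fold of 4.85 and 7 fragments (2.81 to 14.4), the lowest fold of the 25 peaks. The closest approach of GFI1 and LSD1 summits at this gene was 8327 bp. Outside the window, 114 kb upstream, GFI1 peaks of both lines shared a base, with folds of 8.93 from 24 fragments in THP1 cells and 4.83 from 10 fragments in K562 sg-NT cells. Of all GFI1 peaks of THP1 cells, 2.34% overlapped one of K562 sg-NT cells.

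Taken by list, the median fold at the loci lay near that of the whole list for LSD1 and above it for GFI1 of THP1 cells. The GFI1 peaks of THP1 cells had a median fold of 9.09 against 7.41 in the whole list, whose upper quartile was 9.64, and 6 of 10 lay above the list's median. The LSD1 peaks had a median of 7.17 against 6.99, with 6 of 12 above. For the other lists, 1 of 2 SPI1 peaks and the single sg-LSD1 GFI1 peak lay above the median of their list. At 3 loci, IRF1, IRF5 and IRF2BP2, both GFI1 of THP1 cells and LSD1 had a peak in the window, as at 18.9% of all genes. In K562 cells, 78.3% of sg-NT GFI1 peaks shared a base with an LSD1 peak. The loci had no sg-NT GFI1 peak, so this sharing could not be read there.

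The genes around the IRF proteins in the interferon pathway were listed as well, and their windows were read in the same way. The window lengths of these lists were not compared with those of all genes, and longer windows can catch more peaks. Of 14 genes of the interferon receptors and JAK-STAT signalling, 9 had an SPI1 peak, 9 a GFI1 peak of THP1 cells and 9 an LSD1 peak in the window, beside 18.6%, 31.2% and 46.3% of all genes, and the median gene of this list had 1 peak of each against 0 over all genes. These counts rest on 11, 14 and 29 distinct peaks, since the neighbours IFNAR2, IFNAR1 and IFNGR2 share some. The TYK2 window alone held 12 of the LSD1 peaks. Promoter peaks of SPI1, GFI1 and LSD1 were found at 1, 1 and 0 of the 14 genes, beside 1.30%, 4.67% and 8.47% of all genes. Of 17 sensors and adaptors, 3 had an SPI1, 8 a GFI1 and 5 an LSD1 peak in the window, beside 18.6%, 31.2% and 46.3% of all genes. MYD88, the adaptor of Toll-like receptors, had promoter peaks of both THP1 lists, SPI1 14 bp from its start with a fold of 9.26 and GFI1 710 bp from it with a fold of 6.74. The GFI1 summit lay nearer to a start of ACAA1, and the 2 peaks shared no base.

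Of 33 interferon-stimulated genes, 10 had an SPI1, 11 a GFI1 of THP1 cells and 19 an LSD1 peak, beside 18.6%, 31.2% and 46.3% of all genes, so the GFI1 count was near the share of all genes. Since clustered genes share windows, these counts rest on 7, 13 and 26 distinct peaks. PSMB9, an immunoproteasome subunit, had promoter peaks of SPI1 (fold 10.5, 85 bp from a start) and GFI1 (fold 6.22, 519 bp from another start). These peaks shared no base. The SPI1 summit, at chr6:32844051, lay nearest to PSMB8. The GFI1 summit, at chr6:32854711, was also 895 bp from a start of TAP1. RSAD2, which encodes the antiviral enzyme viperin, was the only gene of this list with a GFI1 peak of K562 cells, with a fold of 11 in sg-NT cells 16173 bp from a start, where LSD1 had a fold of 20. IFIT3, named after its values were seen, had a GFI1 peak of THP1 cells 823 bp from a start with a fold of 27.5 from 43 fragments, above the folds of all 25 peaks at the IRF loci.

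Of 10 partner factors, 5 had an SPI1, 7 a GFI1 of THP1 cells and 7 an LSD1 peak, beside 18.6%, 31.2% and 46.3% of all genes, and 3 had a GFI1 peak in sg-NT cells, beside 6.06%. At BATF3, a partner of IRF4 and IRF8 in dendritic cells, GFI1 had a fold of 5.27 in sg-NT and 6.49 in sg-LSD1 cells at a site 63873 and 63794 bp from a start whose peaks also overlapped LSD1. That site lay nearest to GARIN4. At SPIB, an ETS factor, sg-NT GFI1 had a fold of 20.8 and LSD1 of 24.8 at 1 site, nearest to NR1H2. At SPI1 itself the sg-NT GFI1 peak had a fold of 5.51 and lay nearest to PSMC3. IRF2BPL, a paralog of IRF2BP2, had a GFI1 peak of K562 cells. There, 66771 bp from a start, sg-NT GFI1 (fold 11.7, 16 fragments), GFI1 of THP1 cells (fold 31.7, 47 fragments) and LSD1 (fold 26.4, 42 fragments) peaks all shared bases. The 9 loci had no sg-NT GFI1 peak, so they could not hold such a site and are not compared with IRF2BPL.

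**Figure D3:**
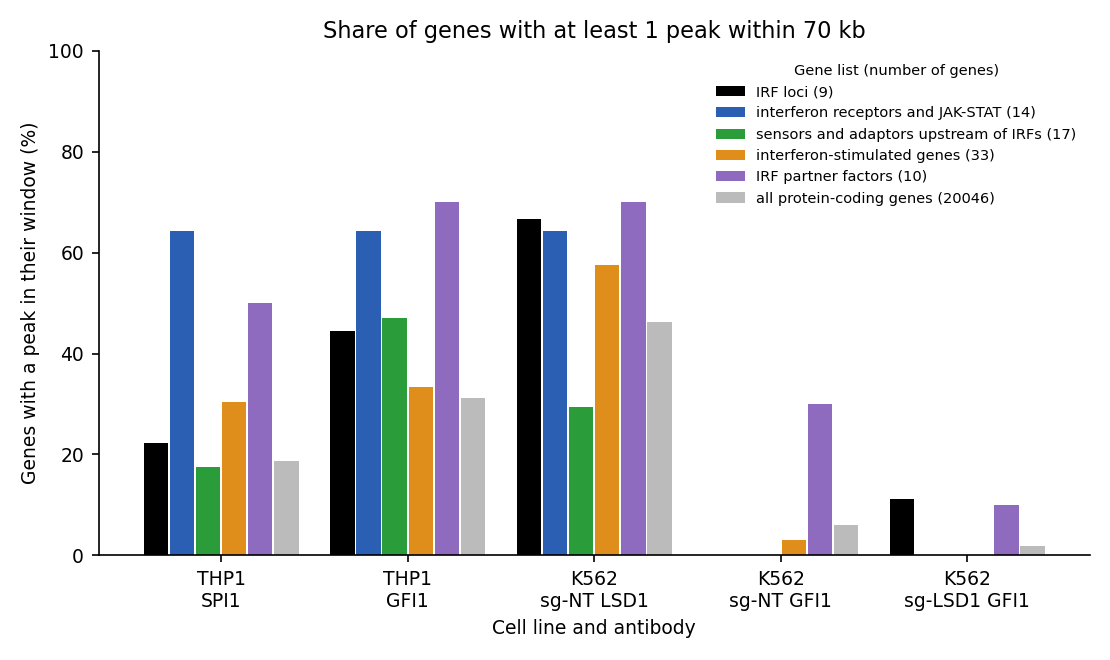
Percent of genes with at least 1 peak in the gene body or 70 kb on either side, for the IRF loci, 4 lists of interferon pathway genes and all protein-coding genes, by peak list; numbers of genes are in the legend. For GFI1 in sg-NT cells the partner factors stand at 30% and the IRF loci at 0, beside 6.06% of all genes.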

How the data were processed

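ChIP-seq peak lists of THP1 and K562 cells were used, 1 library per condition. The submitters' processing notes and the study's methods name Trim Galore 0.6.1, bowtie2 2.5.4 (GRCh38), Picard 3.1.0 for duplicates and MACS2 2.2.9.1 (paired-end, p threshold 1e-05), run on each library, and removal of the ENCODE blacklist. Whether an input served as control is not given in the sources used here. The authors deposited for each peak a fold (ratio to the local background) and the p-value and q-value at the summit as −log10 p and −log10 q. The deposited score, 10 times the −log10 p, was not used.

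Summits were assigned to windows of GENCODE release 44 genes, and peaks counted as shared with at least 1 bp in common. Fragments were solved from fold and −log10 p with the pseudocount of 1. Motif letters were searched in 50 and 200 bp at the summit and 2000 bp away. All peaks of the loci are named, and pathway genes where 2 or more lists had a promoter peak or a K562 GFI1 list a peak, unless said otherwise. The members and lists were chosen with earlier results of these data known. The counting, overlap and fragment steps were tested on simulated data, where 120 of 120 planted overlaps were found. The sequences at 2 of the strongest summits are not reported here. Read totals, coverage tracks, inputs and H3K4me1 libraries were not used here. Software was Python 3.11.15 with pandas 2.3.3, scipy 1.17.1, numpy 2.4.6, pysam 0.24.0 and matplotlib 3.10.9, and samtools 1.23.1.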

Additional observations from a re-analysis of the deposited data

How the results depend on the processing

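Over 22 counts, 89 alternative values were computed, of which 68 stayed within 1.5 times and 21 did not. The main value was 0 for 10 of the 22 counts. A stricter call cannot raise a 0, so many of the 68 were fixed in advance and do not measure stability. With 10 kb on either side the numbers of peaks were 1 for SPI1, 5 for GFI1 of THP1 cells, 2 for LSD1 and 0 for GFI1 of sg-LSD1 cells, and the loci with a peak were 1 for SPI1, 2 for LSD1 and 0 for GFI1 of sg-LSD1 cells. With 200 kb they were 6, 20 and 28 peaks for SPI1, GFI1 of THP1 cells and LSD1, and 1 for GFI1 of sg-NT cells. When the nearest transcript start had to be the member's, 1 SPI1, 5 GFI1 and 5 LSD1 peaks were left, at 1 locus for SPI1 and 2 for LSD1. With a promoter distance of 5000 bp, 1 locus had a GFI1 promoter peak of THP1 cells and 2 an LSD1 promoter peak. The shorter SPI1 core was found at 2 of 2 SPI1 summits, beside 85% of that list and 36.8% of windows 2000 bp away. In 200 bp, the GFI1 core was found at 3 GFI1 summits, all of THP1 cells, beside 27.8% of that list and 10.1% of windows 2000 bp away. Its shorter form was found at 5 in 50 bp. These were 4 of 10 in THP1 cells, beside 50.9%, and 1 of 1 in sg-LSD1 cells, beside 58.1%. Stricter calls (−log10 p from 8 up, or −log10 q from 2 up) and the other rules of overlap kept the counts within 1.5 times. Among the overlap counts, only that of SPI1 peaks shared with GFI1 of THP1 cells was not 0, at 1. Added after seeing the data, windows around the canonical transcript changed no count, and leaving out summits whose 32 bases occur more than once left 9 of 12 LSD1 peaks.

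No paired analysis was possible because every condition used here had 1 library. Depth limits what an absent peak shows, since even at the lowest background of a list 5 or 6 fragments were needed for a call.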
